A study of Homo sapiens with 151 samples.

Results

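The respiratory chain genes described here are the nuclear genes whose symbols name a subunit of complexes I to V. They were taken from GENCODE 44 as protein-coding genes outside the mitochondrial chromosome with symbols of the NDUFA, NDUFB, NDUFC, NDUFS and NDUFV series, SDHA to SDHD, UQCR, CYC1, the COX series of nuclear subunits, and the ATP5F, ATP5M and ATP5P series. There were 89 such genes among 20033 protein-coding genes: 39 of complex I, 4 of complex II, 10 of complex III, 17 of complex IV and 19 of complex V. Of these, 2 are read-through genes that begin almost where a member begins (NDUFC2-KCTD14 at 89 bp from NDUFC2, and ATP5MF-PTCD1 at 3 bp from ATP5MF), so these 2 promoters are counted again under a second symbol. The measure was the number of peak lists with a peak overlapping the 500 bp on either side of the canonical start of each gene, called its promoter below. A peak list is the set of genomic intervals in which 1 DNA-associated protein (DAP) was called as enriched over input DNA.

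The study mapped DAPs in HepG2, a human line from a liver tumour, by chromatin immunoprecipitation and sequencing (ChIP-seq) with an anti-FLAG antibody, each line carrying 1 FLAG-tagged protein. Of 151 samples, 127 had a peak list and 24 were input libraries without antibody pulldown. The study marks all but 6 of the lists as preferred, and these 6 were kept out of all comparisons. Of the preferred lists, 15 were of proteins that are not sequence-specific transcription factors (non-TFs) and all others were of transcription factors (TFs). Each DAP had 1 list, so no value has a replicate error. The preferred lists together held 1410609 peaks, with 195 to 61748 in a list and a median of 8680. The tag sits on a protein made by the cell's own gene in an edited line, and a peak records where that tagged protein was retained in these cells. The lists hold no RNA, so the liver identity of the cells could not be checked from expression. Among promoters of hepatocyte genes, APOB had a peak in 97 lists, HNF4A in 88, APOA1 in 66, TTR in 22 and ALB in 13.

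The respiratory chain sits in the inner mitochondrial membrane: complexes I and II pass electrons to ubiquinone, complex III to cytochrome c and complex IV to oxygen, and complex V uses the resulting proton gradient to make ATP. Most of its subunits are encoded in the nucleus, and the few encoded in mitochondrial DNA must be matched by them. Promoters of these nuclear genes are known for sites of NRF1 (nuclear respiratory factor), of the ETS protein GABP, of YY1 and of Sp1, and liver cells carry many mitochondria.

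RefSeq gave a promoter sequence (GRCh38.p14, 250 bases before to 50 after its start) for 69 of the 89 genes, and in 62 its start lay within 50 bp of the canonical start. Of the 6 stretches below, each from 200 bases before to 20 bases after the start and written 5′ to 3′ on the gene's own strand, ATP5F1E and NDUFS7 are the promoters with most lists, SDHD carries several of the letters known for respiratory genes, COX7B is a broadly expressed subunit with few lists, and COX6A1 and COX6A2 are a pair of paralogs with and without peaks. Capitals mark matches on either strand to the NRF1 site (GCGCATGCG), the ETS core (CCGGAAG), the YY1 site (AAGATGG), the GC box (GGGCGG), the CCAAT box (CCAAT), the E-box (CACGTG), the CRE (TGACGTCA), the ZNF143 site (ACTACAATT) and the ERR site (TCAAGGTCA).
ATP5F1E promoter: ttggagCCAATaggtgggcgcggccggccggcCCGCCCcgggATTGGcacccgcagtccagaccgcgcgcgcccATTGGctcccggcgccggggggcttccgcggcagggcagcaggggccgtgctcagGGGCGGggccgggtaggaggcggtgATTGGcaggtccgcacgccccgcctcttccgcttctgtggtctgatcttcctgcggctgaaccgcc
NDUFS7 promoter: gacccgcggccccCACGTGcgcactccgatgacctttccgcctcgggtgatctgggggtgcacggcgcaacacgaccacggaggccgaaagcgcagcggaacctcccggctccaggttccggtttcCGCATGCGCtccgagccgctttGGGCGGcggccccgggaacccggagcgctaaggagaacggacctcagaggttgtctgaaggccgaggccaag
SDHD promoter: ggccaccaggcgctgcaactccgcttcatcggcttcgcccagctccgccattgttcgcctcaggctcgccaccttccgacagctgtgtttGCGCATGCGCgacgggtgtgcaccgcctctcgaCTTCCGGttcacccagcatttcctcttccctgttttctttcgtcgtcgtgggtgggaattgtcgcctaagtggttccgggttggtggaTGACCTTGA
COX7B promoter: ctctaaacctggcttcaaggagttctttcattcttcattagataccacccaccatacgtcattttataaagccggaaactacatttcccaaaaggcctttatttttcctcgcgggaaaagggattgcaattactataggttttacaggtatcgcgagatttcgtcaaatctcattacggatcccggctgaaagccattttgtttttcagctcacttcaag
COX6A1 promoter: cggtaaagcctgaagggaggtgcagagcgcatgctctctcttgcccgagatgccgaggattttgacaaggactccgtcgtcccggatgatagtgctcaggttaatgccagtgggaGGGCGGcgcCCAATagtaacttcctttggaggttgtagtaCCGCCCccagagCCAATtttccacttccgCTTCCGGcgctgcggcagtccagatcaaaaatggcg
COX6A2 promoter: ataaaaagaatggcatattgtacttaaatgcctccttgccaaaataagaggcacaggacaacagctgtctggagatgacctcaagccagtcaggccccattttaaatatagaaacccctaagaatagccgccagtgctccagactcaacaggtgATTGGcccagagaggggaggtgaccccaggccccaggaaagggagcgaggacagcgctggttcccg

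The ATP5F1E stretch (chr20:59032316-59032535, minus strand) held 4 CCAAT boxes and 2 GC boxes, and 97 lists had a peak at this promoter. The NDUFS7 stretch (chr19:1383707-1383926, plus strand) held an E-box, an NRF1 site and a GC box, with 90 lists. The SDHD stretch (chr11:112086673-112086892, plus strand) held the NRF1 site on both strands, an ETS core and an ERR site, with 40 lists. In the COX7B stretch (chrX:77899268-77899487, plus strand) none of the 9 motifs matched, and 3 lists had a peak. COX6A1 (chr12:120437913-120438132, plus strand) had 2 GC boxes, 2 CCAAT boxes and an ETS core with 31 lists, whereas COX6A2 (chr16:31428341-31428560, minus strand) had a single CCAAT box and no list. Outside these stretches, the longer RefSeq promoters used for the counts below also held a CCAAT box at COX7B, an NRF1 site at COX6A1 and a YY1 site at NDUFS7. A match of letters is a description, and no binding site is implied by it.

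Respiratory chain promoters had peaks of many DAPs. The median member had a peak in 44 of the preferred lists, against 15 over all protein-coding promoters, and their quartiles were 27 and 57 lists, against 0 and 43 over all protein-coding promoters. Of the 89 members, 60 had a peak in at least 31 lists, which is 25% of the lists and the share the study uses for its highly bound sites, and 36.9% of all protein-coding promoters reached the same number. Members thus reached it in 67.4% of cases. The study applies its share to a larger set of DAPs and to merged peak centres, so these promoters need not be its highly bound sites. At the other end 7 members (7.87%) had no peak in any list, against 32.1% of protein-coding promoters. Nearest to the threshold were NDUFA1, COX6A1 and COX7C with 31 lists each, just inside, and NDUFA3, NDUFB4 and NDUFB5 with 30 each, just outside. Genes are not replicates of one another, so these counts are given beside their background with no test.

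Base composition and neighbouring genes were compared beside these numbers. A promoter was counted as CpG-rich when the stretch of 500 bp on either side of its start had over 50% G and C and a ratio of observed to expected CpG above 0.6, which held for 84.3% of the members and 64.8% of protein-coding promoters. Within CpG-rich promoters alone, 57 of 75 members (76.0%) had at least 31 lists, against 52.6% of 12976 protein-coding promoters, with medians of 48 and 33 lists. The 14 members that were not CpG-rich had a median of 2.5 lists, against 0 over such protein-coding promoters, and 3 of them (21.4%) had at least 31, against 8.15% of such protein-coding promoters. A protein-coding gene starting within 1000 bp on the opposite strand, heading away, was found for 25 members (28.1%) and for 9.46% of protein-coding genes. Such partners included GABPA, the ETS factor known for respiratory genes, at 68 bp from ATP5PF, MRPL47, a mitochondrial ribosomal gene, at 156 bp from NDUFB5 and TIMM8B at 117 bp from SDHD. Peaks at these promoters cannot be assigned to one gene of the pair. Members with a divergent partner had a median of 46 lists, members without one 42, and protein-coding promoters 45 with and 10 without. How much of the difference between members and other genes goes with either property was not tested beyond these splits.

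**Figure D1:**
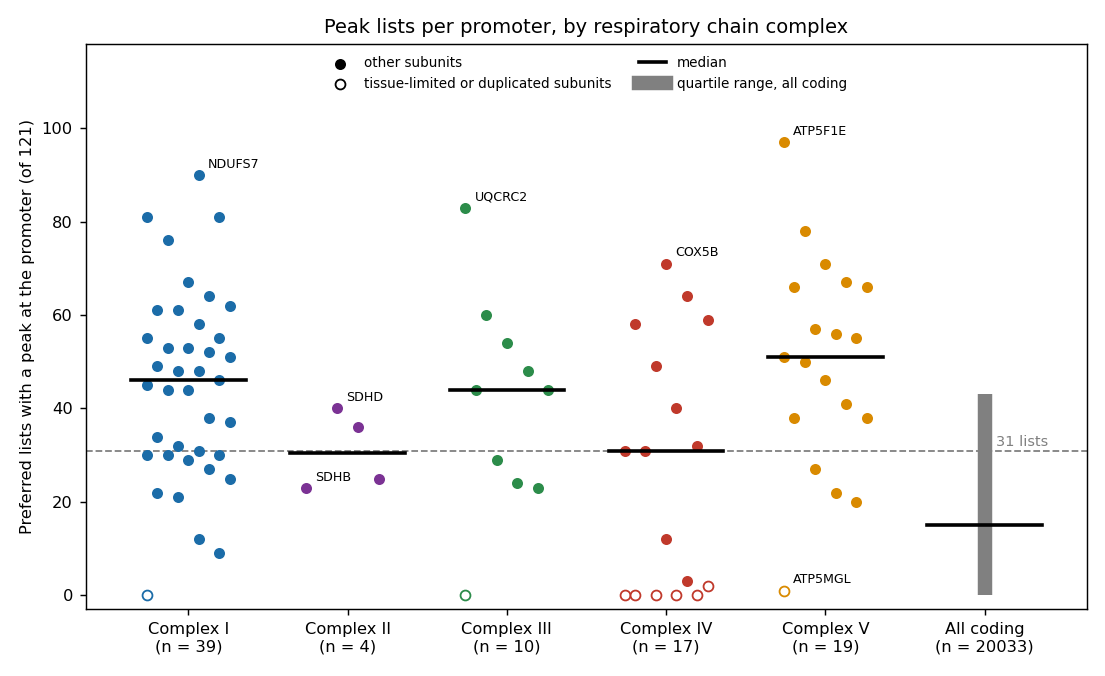
Number of preferred peak lists (y axis) with a peak at each respiratory chain promoter, by complex (x axis), with black bars for medians, open points for tissue-limited or duplicated subunits, a dashed line at 31 lists and, at the right, the quartile range and median of all protein-coding promoters. Complex V has the highest median, 51 lists, complex II the lowest, 30.5, and 7 of the open points lie at 0.

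The 5 complexes overlapped widely in their numbers of lists. Complex V had a median of 51 lists with 15 of 19 promoters at 31 or more, complex I 46 with 28 of 39, complex III 44 with 6 of 10, complex IV 31 with 9 of 17 and complex II 30.5 with 2 of 4. The SD among promoters was 20.3 lists in complex I, 8.29 in complex II, 23.1 in complex III, 26.3 in complex IV and 22.8 in complex V. Complex IV also held 5 of the 7 promoters without a list. When the 9 tissue-limited or duplicated subunits were set aside, a choice made after the values were seen, complex IV had a median of 40 lists with 9 of 11 promoters at 31 or more, complex V 53 with 15 of 18, complex I 47 with 28 of 38 and complex III 44 with 6 of 9. The plot of lists per promoter shows both sets of points.

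Each list could be asked on its own which complex it covered more. Complex V had a larger share of its promoters bound than complex IV in 98 lists and a smaller one in 16, and complex I stood above complex IV in 98 lists and below it in 16. Without the tissue-limited or duplicated subunits these counts came to 81 against 33 lists for complex V over complex IV and 71 against 43 for complex I over complex IV. Complex V stood above complex I in 75 lists and below it in 42, and above complex II, which has 4 promoters only, in 86 lists and below it in 28. Lists share cells, antibody and promoters, so these counts are descriptions.

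In complex I, the NADH dehydrogenase, the core subunits that carry its iron-sulfur clusters and flavin had peaks of many DAPs. All 7 nuclear core genes reached the threshold of 31 lists, with a median of 48, the highest being NDUFS7, which carries the last cluster before ubiquinone, with 90 lists, and NDUFS3 with 76. NDUFC2, an accessory subunit of the membrane arm, had 81, and all 81 were the same lists that its read-through gene had. At the low end NDUFC1 had 9 lists and NDUFB11 had 12, both accessory subunits of the membrane arm, and NDUFA4L2 had none. NDUFC1 shows what the choice of start does: within 1000 bp of its canonical start 33 lists had a peak, and 68 lists had one at any of its annotated starts. For NDUFB11 both wider counts stayed at 12. NDUFA4, named as a complex I gene but found in complex IV in later work, had 44 lists.

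Complex II, succinate dehydrogenase, is the one complex encoded wholly in the nucleus. Its membrane anchors SDHD and SDHC had 40 and 36 lists, and its catalytic subunits, the flavoprotein SDHA and the iron-sulfur protein SDHB, had 25 and 23. All 4 promoters were CpG-rich. With a single gene for each role, no comparison of roles could be made.

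In complex III, the cytochrome bc1 complex, the core protein gene UQCRC2 had 83 lists, followed by its partner UQCRC1 with 60 and the ubiquinone-binding subunit gene UQCRQ with 54. CYC1, the subunit that hands electrons to cytochrome c, had 48. The Rieske iron-sulfur protein gene UQCRFS1 had 23 lists and UQCRB 24, and the retrocopy UQCRHL had none. UQCRH, the hinge protein gene, had 29 lists within 500 bp and 53 within 1000 bp, with LRRC41 starting 82 bp away on the other strand.

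In complex IV, cytochrome c oxidase, COX5B had 71 lists, COX4I1 64 and COX7A2L, known as a factor that joins complexes into supercomplexes, 59. Among broadly expressed subunits COX6B1 had 12 lists and COX7B had 3, and the lists at COX7B were MGA, ZBTB12 and ZMYM4, which all belong to the 5 longest lists. COX4I2 had 2 lists, of POU2F1 and ZNF701. COX6A2, COX6B2, COX7A1, COX7B2 and COX8C had none.

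In complex V, ATP synthase, the c ring genes ATP5MC3, ATP5MC2 and ATP5MC1, which encode the same mature protein, had 78, 71 and 55 lists. The F1 head had 97 lists at ATP5F1E (epsilon), 57 at ATP5F1A (alpha), 51 at ATP5F1B (beta) and 38 each at ATP5F1C (gamma) and ATP5F1D (delta). ATP5F1E was the member with most lists, and 75 of its lists also had a peak at NDUFS7. The peripheral stalk had 67 lists at ATP5PD, 41 at ATP5PF, 27 at ATP5PO and 22 at ATP5PB. ATP5MG had 20 lists, and its retrocopy ATP5MGL had 1, of ZFP91.

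**Figure D2:**
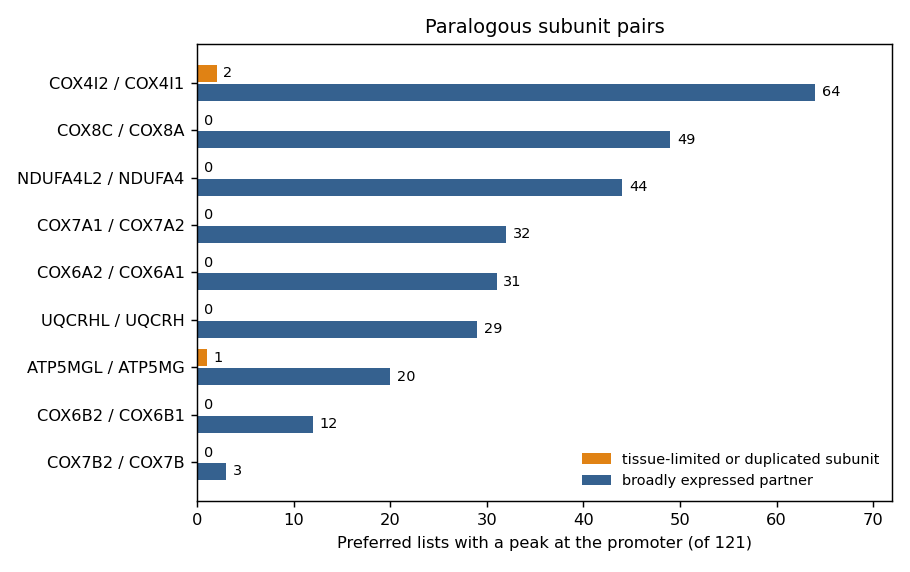
Number of preferred lists (x axis) with a peak at the promoter of each tissue-limited or duplicated subunit (orange, upper bar) and of its broadly expressed partner (blue, lower bar), for 9 pairs. The upper bars reach at most 2 lists and the lower bars run from 3 to 64.

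Subunits known to be limited to other tissues, or present as retrocopies, had peaks in at most 2 lists in HepG2, while their paralogs had 3 to 64. Such genes include COX6A2 and COX7A1 of heart and muscle, COX4I2 of lung, COX6B2, COX7B2 and COX8C of testis and NDUFA4L2 of hypoxic cells. COX4I2 had 2 lists against 64 at COX4I1, COX8C 0 against 49 at COX8A, NDUFA4L2 0 against 44 at NDUFA4, COX7A1 0 against 32 at COX7A2, and COX6A2 0 against 31 at COX6A1. UQCRHL had 0 against 29 at UQCRH, ATP5MGL 1 against 20 at ATP5MG, COX6B2 0 against 12 at COX6B1 and COX7B2 0 against 3 at COX7B. The limited gene had fewer lists in each of the 9 pairs, as the plot of paralogous pairs shows. These pairs were chosen with earlier results of these data known, so their direction carries no test. Of the 9 limited promoters 7 had no list (77.8%), against 32.1% of protein-coding promoters. Only 2 were CpG-rich, COX6A2 and COX6B2, and both had no list. Among protein-coding promoters, 66.3% of those not CpG-rich and 13.5% of the CpG-rich had none. At any annotated start NDUFA4L2 had 6 lists. The files hold no expression values, so whether these genes were silent in the same cells was not tested.

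Genes that build the chain or regulate its genes also had peaks of many DAPs. Of 50 assembly factors and related genes, 44 (88.0%) had at least 31 lists with a median of 57, the highest being PET117, a complex IV assembly factor, with peaks in 87.6% of the lists, followed by NDUFAF5 of complex I assembly with 95 lists, and the lowest ATPAF1 with 17 and LYRM7 with 18. Of 15 nuclear regulators of mitochondrial genes, 12 (80.0%) had at least 31 lists with a median of 42, from 85 at TFB1M, a mitochondrial rRNA methyltransferase, and 70 at GABPB1 to 16 at YY1 and 14 at PPARGC1B. For other large housekeeping sets the medians were 49 lists for 78 mitochondrial ribosomal genes, 56 for 86 cytosolic ribosomal genes and 53 for 50 proteasome genes, with 83.3%, 88.4% and 74.0% at 31 lists or more. The 80 members left without the limited subunits had a median of 46, with 75% at that number.

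**Figure D3:**
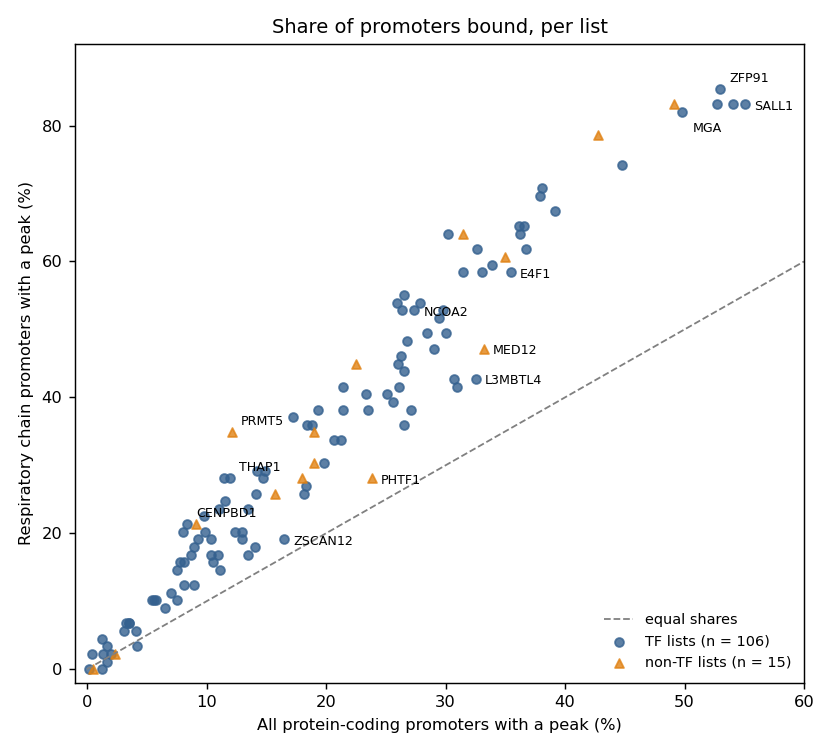
Share of respiratory chain promoters (y axis, %) against share of all protein-coding promoters (x axis, %) with a peak, 1 point for each preferred list, with TF lists as blue circles, non-TF lists as orange triangles and a dashed line at equal shares. Of the points, 115 lie above the line.

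Seen from the lists, most covered respiratory chain promoters more than other promoters. A larger share of member promoters than of protein-coding promoters had a peak in 115 preferred lists and a smaller share in 6, and this held for all 105 lists with at least 1000 protein-coding promoters. The median ratio of the 2 shares was 1.75. Against CpG-rich protein-coding promoters the member share was larger in 102 lists. The median list had a peak at 27 members, and the lists of CENPX, SCMH1 and ZNF853 at none.

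The longest lists covered most members. ZFP91, a zinc finger protein with 41124 peaks, had a peak at 76 members (85.4%, against 53.0% of protein-coding promoters). POU2F1, the octamer factor also called OCT1, had 74 (83.1%, against 52.7%), SALL1 74 (against 55.0%), ZBTB12 74 (against 54.1%) and the non-TF ZMYM4 74 (against 49.1%). Fewest members, among lists with at least 1000 protein-coding promoters, were found for ZNF148 with 8 (8.99%, against 6.50%) and for E2F7, GLMP, ZBTB47 and ZNF45 with 9 each (10.1%, against 7.53%, 5.47%, 5.56% and 5.78%). The plot of shares per list shows that the member share followed the share of all coding promoters.

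Ratios of the shares separated lists of similar length. PRMT5, an arginine methyltransferase, had a peak at 31 members (34.8%, against 12.1% of protein-coding promoters), a ratio of 2.87. CENPBD1 had 19 members (21.3%, against 8.36%), ZNF559 18 (20.2%, against 8%), PEG3 25 (28.1%, against 11.4%) and THAP1, a zinc finger factor of the THAP family, 25 (28.1%, against 11.9%), with ratios of 2.55, 2.53, 2.46 and 2.36. The lowest ratios were 1.16 for ZSCAN12 with 17 members (19.1%, against 16.5%), 1.18 for PHTF1 with 25 (28.1%, against 23.8%), 1.25 for ZFP90 with 15 (16.9%, against 13.4%), 1.28 for the oxysterol receptor NR1H2 with 16 (18%, against 14%) and 1.31 for L3MBTL4 with 38 (42.7%, against 32.5%). These are the extremes of 105 lists with 1 experiment each. Both read-through genes count among the members of PRMT5, CENPBD1, ZNF559, PEG3 and L3MBTL4. For THAP1, PHTF1, ZFP90 and NR1H2 1 of them does, and ratios without them were not computed.

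No difference between TF and non-TF lists in their share of members exceeded the spread of lists. Member promoters made up 0.778% ± 0.237 (SD over lists) of the protein-coding promoters bound by a TF list and 0.732% ± 0.286 (SD, 15 lists) of those bound by a non-TF list. The difference was 0.0453 percentage points (two-sided permutation test over lists with 100000 resamples, p = 0.474). TF lists lay between 0 and 2.20%, with a median of 0.778%, and non-TF lists between 0 and 1.27%, with a median of 0.752%. The 15 non-TF lists thus lay within the range of the TF lists. The highest TF value was that of ZBTB22, a list of 297 peaks with 2 members among 91 protein-coding promoters. Over lists with at least 1000 peaks the maximum was 1.13% for TF lists and 1.27%, of PRMT5, for non-TF lists. Of 9 input libraries or pairs of them used for lists of both classes, the TF mean was higher in 5 and lower in 4, and permuting labels within them gave p = 0.438 (permutation test).

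**Figure D4:**
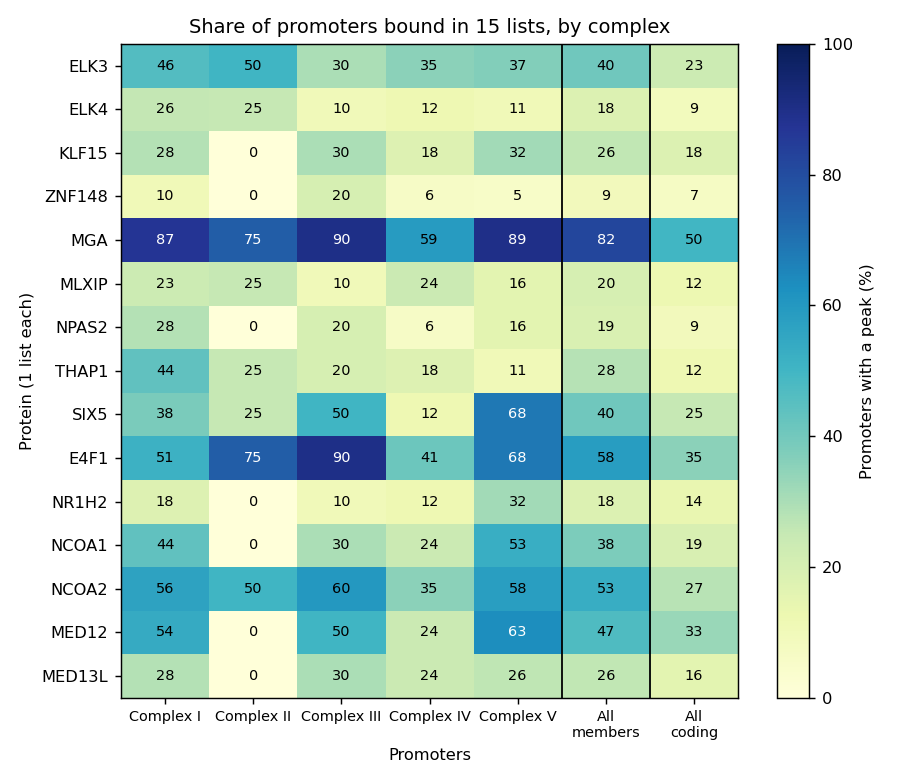
Percent of promoters with a peak (colour and printed value) in 15 lists (rows) at the promoters of each complex, of all members and of all protein-coding genes (columns). SIX5 has its highest share in complex V and THAP1 in complex I.

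Some lists differed between complexes in ways the totals hide. THAP1 had a peak at 17 of 39 complex I promoters (43.6%) and at 2 of 19 complex V promoters (10.5%), against 11.9% of protein-coding promoters. SIX5, a homeodomain factor, went the other way, with 13 of 19 complex V promoters (68.4%) and 15 of 39 in complex I (38.5%), and with 2 of 17 in complex IV (11.8%), against 25.1% of protein-coding promoters. The THAP1 promoters included NDUFS1, NDUFS3, NDUFS6, NDUFS7 and NDUFS8, and the SIX5 promoters included all F1 head genes but ATP5F1D. E4F1, a zinc finger factor, had peaks at 9 of 10 complex III promoters (90.0%), against 35.5% of protein-coding promoters. MGA, a partner of MAX, had peaks at 73 members (82.0%, against 49.8%). The lists were picked for known roles, and the pairs of complexes after their values were seen, so these shares carry no test.

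Peaks of the other named factors were counted in the same way. In the ETS family ELK3 had 36 members (40.4%, against 23.3% of protein-coding promoters) and ELK4 16 (18%, against 8.98%). KLF15 of the GC box family had 23 (25.8%, against 18.2%). The E-box factors MLXIP and NPAS2 had 18 (20.2%, against 12.4%) and 17 (19.1%, against 9.32%). The nuclear receptor coactivators NCOA1 and NCOA2 had 34 (38.2%, against 19.3%) and 47 (52.8%, against 27.4%), and MED12 and MED13L of the Mediator kinase module had 42 (47.2%, against 33.2%) and 23 (25.8%, against 15.7%). MED12, MED13L, NCOA1, NR1H2, KLF15, ZNF148 and NPAS2 had no peak at any of the 4 complex II promoters. Their shares of protein-coding promoters ran from 6.50% (ZNF148) to 33.2% (MED12), and 4 promoters are too few to show an absence. Lists of NRF1, GABPA, YY1 and SP1 were not analysed here.

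Some of the letters known for respiratory genes stood in a larger share of member promoters than of all promoters. Over the 62 members and 12951 protein-coding genes with a RefSeq promoter near the canonical start, the NRF1 site stood in 9 members (14.5%, against 2.93%), the ETS core in 19 (30.6%, against 15.4%), the YY1 site in 15 (24.2%, against 6.81%) and the CRE in 5 (8.06%, against 2.94%). The GC box stood in 38 members (61.3%, against 61.9%), the CCAAT box in 22 (35.5%, against 37.6%) and the E-box in 7 (11.3%, against 9.06%). Of CpG-rich protein-coding promoters alone, 79.8% held the GC box, 36.6% the CCAAT box and 10.9% the E-box. The ETS core stood in 20.5% of these, the YY1 site in 7.59%, the NRF1 site in 4.14% and the CRE in 3.93%. Members were not split by CpG content for these counts. The ZNF143 site stood in 1 member (COX7C) and the ERR site in 1 (SDHD), against 0.541% and 0.185% of protein-coding promoters. Of the 9 members with an NRF1 site, 4 were among the 28 complex I promoters searched. None of these strings contains another on either strand, and 4 members held none of them.

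Medians of lists for members with and without these letters are given as a description. Members with a GC box had a median of 50 lists and members without it 35.5, members with an NRF1 site 40 and without it 48, and members with a YY1 site 37 and without it 46. With the ETS core both medians were 46. ELK4 had a peak at 6 of 19 members with the ETS core (31.6%) and at 5 of 43 without it (11.6%), and over all protein-coding promoters at 24.1% with it and 7.02% without it. ELK3 had a peak at 10 of 19 members with the core (52.6%) and at 17 of 43 without it (39.5%), and over protein-coding promoters at 54.0% and 20.1%. MGA had a peak at all 7 members with an E-box and at 46 of 55 without one, and over protein-coding promoters at 68.0% and 51.5%. Among members, the other 2 E-box factors had smaller shares with the box, on 1 bound promoter each. MLXIP had a peak at 1 of 7 members with it and 10 of 55 without it, and NPAS2 at 1 of 7 and 12 of 55. Over protein-coding promoters their shares were larger with the box, 20.95% against 12.92% for MLXIP and 16.35% against 9.586% for NPAS2. For the GC box, KLF15 had 10 of 38 members with it and 4 of 24 without it, and ZNF148 3 of 38 and 3 of 24. Where no letters matched, nothing follows about the factor.

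**Figure D5:**
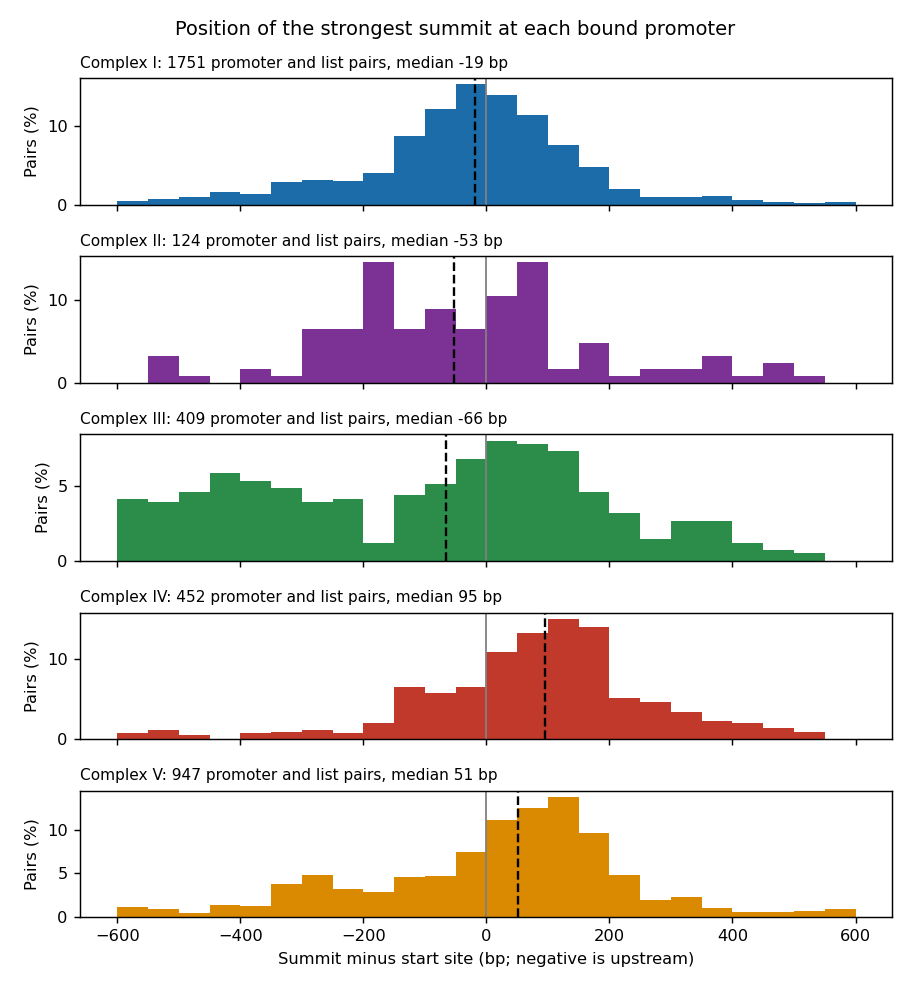
Distance of the strongest peak summit from the canonical start (x axis, bp, negative upstream) for each pair of a bound member promoter and a list, as percent of the pairs of each complex (y axis), with dashed lines at medians. Pairs beyond 600 bp (102 of 3683) are not drawn. The median is -19 bp in complex I and 95 bp in complex IV.

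Summits gathered near the start but not at the same side of it. Over the 3683 pairs of a bound member promoter and a list, the median distance of the strongest summit from the start was 10 bp, its quartiles were -122 and 115 bp, and 43.1% lay within 100 bp. The median was -19 bp in complex I, -53 bp in complex II, -66 bp in complex III, 95 bp in complex IV and 51 bp in complex V. In complex IV 26.8% of summits lay upstream of the start, and the promoter's own median was upstream at 3 of 12 genes, whereas in complex I 55.5% lay upstream and 18 of 38 genes had an upstream median. At single promoters the medians over lists were -118.5 bp at NDUFS7, -7 bp at ATP5F1E, 192.5 bp at COX5A, 85 bp at COX5B and -178 bp at UQCRC2. A peak had only to overlap the window, so 217 summits lay beyond 500 bp, among them the median at UQCR10 (-507.5 bp, with ZMAT5 starting 362 bp away) and at NDUFC1 (584 bp). Pairs of 1 promoter share their start annotation and are not independent.

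The signal of a member's peak was ranked among all peaks of its own list. The median percentile was 88.3 at ATP5F1E with 97 lists, 88.0 at NDUFS7 with 90, 73.9 at UQCRC2 with 83 and 71.4 at ATP5MC3 with 78. Among promoters with few lists it was 62.9 at NDUFA5 with 21 lists, 57.4 at NDUFB11 and 38.4 at COX6B1 with 12 each, 38.6 at NDUFC1 with 9 and 35.3 at COX7B with 3, so that promoters with the same number of lists differed. Over lists, the median percentile of member peaks had a median of 64.3.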

How the data were processed

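ChIP-seq libraries of FLAG-tagged proteins in HepG2 were processed by the authors into 1 narrowPeak list per protein on hg38, the build in the submitters' processing notes. The aligner is not given in the sources used here, and the study's methods name reproducibility (IDR) checks among its audits. The deposited columns used were the peak score (540 to 1000), the signal of each peak and the offset of its summit. The p-value and q-value columns of the authors were not used, and the depth of the libraries is unknown here. All peaks lay within the chromosomes of the reference used.

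Starts were the Ensembl canonical transcripts of GENCODE 44. A promoter counted as bound by a list when 1 bp or more of a peak overlapped the 500 bp on either side, and 31 lists (25% of those preferred) was the threshold. The members, gene lists and named proteins were chosen with earlier results of these data known. Named were the 3 promoters with most and with fewest lists in each complex, members without a list, the paralogous pairs, members at the threshold, and lists extreme in number or ratio among those with at least 1000 protein-coding promoters. TF and non-TF classes, and each list's input library, came from the study's supplement and the labels. The class comparison was a two-sided permutation test (100000 resamples, numpy 2.4.6, Python 3.11.15), tested on simulated data with the overlap code. The 6 lists not marked as preferred were left out of comparisons. Values of 1 member are not reported here by name. Alternatives changed the window, start, score minimum, lists and members.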

Additional observations from a re-analysis of the deposited data

Results flagged for a closer look

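The 6 lists that the study does not mark as preferred were used in no comparison above. Of these, 5 had peaks at more than 3 of the 89 members (3.37%), the floor set for flagging a list. Their share of members is given beside that of protein-coding promoters. The ZZZ3 list had a peak at 57 members (64.0%, against 24.2% of protein-coding promoters), the TSC22D2 list at 41 (46.1%, against 23.3%), the ZNF431 list at 37 (41.6%, against 26.5%), the ZCCHC11 list at 29 (32.6%, against 14.6%) and the EP300 list at 26 (29.2%, against 16.6%). The GPBP1L1 list, with 73 peaks, had none.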

How the results depend on the processing

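Of 89 members, 60 had at least 25% of the lists. This number was between 55 and 62 with windows of 250 or 1000 bp and with the central 100 bp of each peak. It also lay there at any annotated start, with the TF lists alone and without the 5 longest lists. In these settings the share of protein-coding promoters ran from 33.2% (250 bp) to 42.15% (any annotated start). At any annotated start the median was 44 lists for members and 22 for protein-coding promoters. Without read-through genes the count was 58, and without the tissue-limited or duplicated subunits, chosen after seeing the data, 60. Both counts were fixed beforehand, because both read-through genes lay above the threshold and all limited subunits below it. With peaks of a score of at least 830 the count was 33 (37.1%, against 17% of protein-coding promoters). At 50% of the lists it was 18 (20.2%, against 11.3%). With the score minimum the median number of lists was 23 in complex I, 13.5 in complex II and 16.5 in complex III, 13 in complex IV and 33 in complex V. With the 250 bp window the median of complex III was 30.5, against 44 with 500 bp. The difference between TF and non-TF lists was -0.0276 points (p = 0.744, permutation test) with the score minimum and -0.0102 (p = 0.805, permutation test) over the lists with at least 1000 peaks, and p was at least 0.435 in every alternative run. Summit medians kept their side of the start with the score minimum and, chosen after seeing the data, with summits inside the window alone. The count of lists with a larger member share was 116 with the 250 bp window. The number of reads is unknown here, a protein's list depends on how well its tagged form was precipitated, and a promoter without a peak may lie below the calling threshold.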
